A study of Mus musculus with 6 samples.

Results

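The 39 genes described here encode the proteins that keep a cell's thiols reduced and remove peroxides, superoxide and free metal ions. They were taken by name as a fixed list and placed in 5 groups by role: 16 glutathione genes, 12 thioredoxin and peroxiredoxin genes, 4 superoxide dismutase and catalase genes, 2 metallothioneins, and 5 genes of the oxidant-responsive regulator NRF2, its sensor KEAP1 and the haem and quinone enzymes. Every probe annotated to one of these symbols was read. There were 71 such probes for 36 of the 39 genes, and 50 of them, for 32 genes, were bright enough to be tested, out of 14636 probes and 8626 genes tested on the array as a whole.

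The samples were 3 arrays of lens RNA from Tdrd7 null mice and 3 arrays of lens RNA from Tdrd7 heterozygous mice, all at postnatal day 4 (P4) and on a C57BL/6J and C3A.Blia mix. The Tdrd7 protein has Tudor domains and sits in RNA granules of the cytoplasm. The heterozygous animals served as the comparison and themselves carry 1 mutant copy, since no wild-type group was analysed here. The labels name neither the allele nor whether each array came from a separate animal, so the p-values below measure the spread between arrays. The letters a, b and c name the arrays of a genotype and do not pair arrays between genotypes.

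The lens relies on reduced glutathione to a degree seen in few other tissues, because its crystallins are never replaced and must stay soluble for life. Glutathione is made by glutamate-cysteine ligase and glutathione synthetase, spent by the glutathione peroxidases and transferases, and regenerated with NADPH. Thioredoxin and the peroxiredoxins form a parallel thiol system, the dismutases and catalase handle superoxide and hydrogen peroxide, and the metallothioneins bind zinc and copper through cysteines. NRF2, encoded by Nfe2l2, is held low by KEAP1 and switches on many of these genes through the antioxidant response element.

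The promoter stretches below show where letters of that element lie beside members measured here. They come from RefSeq windows on GRCm38.p6 that run from 250 bases before to 50 bases after each annotated start, and 32 of the 39 members were matched to 42 windows. Capitals mark the letters TGACNNNGC or their reverse complement. Among members, 9 of 32 genes (28.1%) held such a match, against 14% of the 27025 genes with a window. The match of the ninth, Srxn1, lay after the start and is not shown. The windows are printed on the gene's strand, 5′ to 3′, and each is named with its position.
Nfe2l2 at chr2:75704877-75704913 on the minus strand: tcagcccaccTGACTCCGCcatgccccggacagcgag
Gstm5 at chr3:107895794-107895838 on the plus strand: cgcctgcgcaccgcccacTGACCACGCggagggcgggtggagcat
Gclm at chr3:122245405-122245449 on the plus strand: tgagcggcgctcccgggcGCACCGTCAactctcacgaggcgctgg
Prdx1 at chr4:116685448-116685492 on the plus strand: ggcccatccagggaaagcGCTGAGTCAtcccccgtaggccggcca
Mgst1 at chr6:138140453-138140497 on the plus strand: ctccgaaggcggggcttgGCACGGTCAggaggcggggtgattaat
Mt2 at chr8:94172521-94172565 on the plus strand: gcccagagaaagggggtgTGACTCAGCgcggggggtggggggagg
Txnrd1 at chr10:82859096-82859140 on the plus strand: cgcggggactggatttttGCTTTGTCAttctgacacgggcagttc
Sod1 at chr16:90220688-90220732 on the plus strand: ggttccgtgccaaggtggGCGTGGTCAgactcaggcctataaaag

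The metallothionein windows are shown for the metal response element, which the zinc-sensing factor MTF1 binds. Capitals here mark TGCACNC or TGCGCNC or their reverse complements. The 100 bases shown for Mt1 held 1 match and the 250 shown for Mt2 held 3; counting the bases after the start, which are not shown, the full windows held 3 and 4. The antioxidant-type letters of Mt2 shown above lie in lower case within the longer Mt2 stretch. Over all windows this motif was common: 9 of 32 members (28.1%) and 28.2% of all genes held one. The AP-1 element TGACTCA, was found on either strand in 6 of 32 members (18.8%) and in 5.95% of all genes; in Mt2 and Prdx1 a match overlapped the antioxidant-type letters. These 3 motifs were chosen after the array values were seen, and a match describes letters only.
Mt1 at chr8:94178989-94179088 on the plus strand: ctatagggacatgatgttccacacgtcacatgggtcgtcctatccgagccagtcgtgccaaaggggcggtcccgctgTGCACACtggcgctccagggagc
Mt2 at chr8:94172368-94172617 on the plus strand: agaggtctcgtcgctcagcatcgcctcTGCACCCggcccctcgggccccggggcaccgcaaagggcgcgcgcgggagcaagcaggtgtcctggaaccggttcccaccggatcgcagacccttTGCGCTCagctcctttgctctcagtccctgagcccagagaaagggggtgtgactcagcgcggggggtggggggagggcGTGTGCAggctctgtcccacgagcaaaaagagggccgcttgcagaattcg

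Signals below are either the deposited raw intensity, given as mean ± SD over 3 arrays, or the normalised log2 signal, on which every difference (null minus heterozygous) was computed. A probe was tested when its detection p was under 0.05 on at least 3 of the 6 arrays, and a gene with several probes is represented by the brightest. The median raw intensity of an array was 69.0 to 73.9 on null arrays and 70.3 to 76.6 on heterozygous arrays, with 30.7% to 34.8% of probes detected. Tdrd7 followed the labels: it averaged 1191 ± 82 in null lenses and 12861 ± 336 in heterozygous lenses, a log2 difference of -3.48 (SE 0.153, limma adjusted p = 1.47e-05). Of 16 lens fibre markers, 13 were tested, and of 10 lens epithelial markers, 9. Null array b stood apart, with 25.1% of tested genes more than 0.5 log2 from the mean of the other 5 arrays, against 2.57% to 5.73% on each other array. Values without it stand beside many of the differences given for single genes.

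None of the 32 tested members passed limma's test at an adjusted p under 0.05, where 0.0232% of the 8626 tested genes did. Among their 50 tested probes, 0 passed, where 0.0137% of all tested probes did, and 4 had an unadjusted p under 0.05, beside 4.11% of all tested probes. The smallest adjusted p of a member was 0.964. The members split into 17 higher and 15 lower in null lenses, and their median log2 difference was 0.0050, beside -0.011 over all tested genes. Their typical size of difference was also that of the array: the median absolute log2 difference was 0.126 for members and 0.131 for all genes. At an unadjusted p under 0.05 stood 3 of 32 members, Nfe2l2, Mt1 and Prdx3, beside 4.01% of all genes. Null and heterozygous arrays did not overlap for 4 of 32 members, Nfe2l2 and Mt1 being higher and Prdx3 and Sod1 lower in null lenses, beside 11.4% of all genes (5.23% higher and 6.13% lower). Since whole-lens RNA was measured, fewer cells of a type and less RNA per cell cannot be told apart.

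The precision gives a rough bound, on the scale of the normalised signal, to a missed difference. On the brightest probes, the 95% interval, taken gene by gene, lay within 2-fold in either direction for 32 of 32 tested members. It lay within 1.5-fold for 20 of 32. Among other probes, the interval of a second Gss probe reached a log2 difference of 1.12, and that of a dimmer Gstp1 probe 1.09, both past 2-fold. For dim members such as Nfe2l2 the size of the difference also depended on the background correction. For such members the interval bounds the normalised signal only, and not a change in the transcript. Without null array b the members divided into 16 higher and 16 lower. Again 0 passed the test, where 2 of 8626 genes did. At an unadjusted p under 0.05 were 3 of 32 members (Hmox1, Nfe2l2 and Prdx3), beside 5.98% of all genes. Non-overlap then covered 8 of 32 members (25%), beside 23.6% of all genes.

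**Figure D1:**
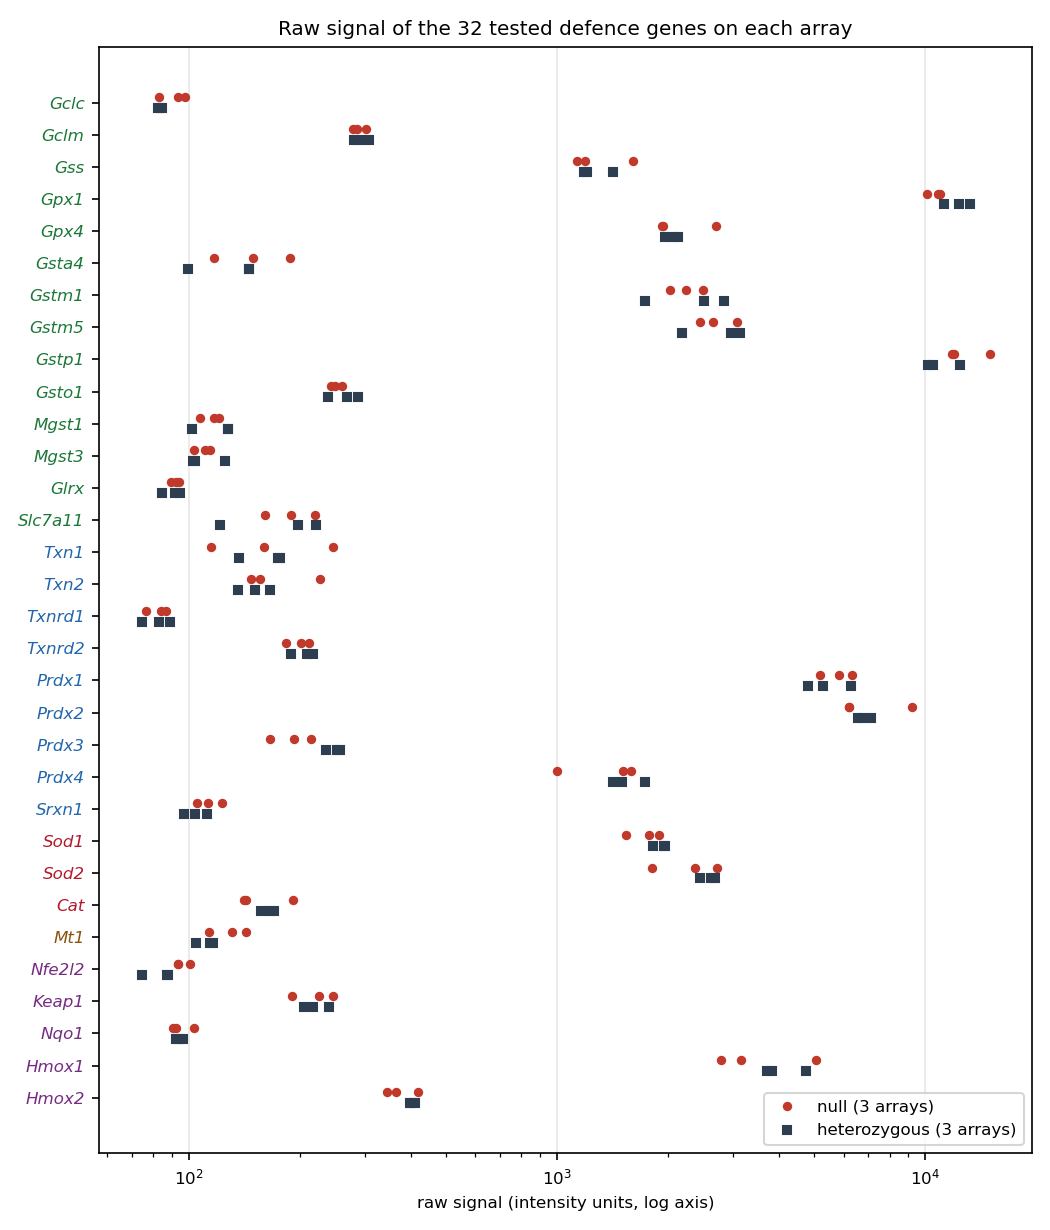
Raw intensity (log axis, arbitrary units) of the representing probe of each member, with the 3 null arrays (circles) just above the 3 heterozygous arrays (squares), members grouped by role. For most members the points of both genotypes lie on top of each other, with exceptions such as Prdx3, Gpx1 and Nfe2l2, whose raw values do not overlap.

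Transcripts of the glutathione synthesis genes gave no difference past the test. Gclc, the catalytic subunit of glutamate-cysteine ligase, was dim, at 91.2 ± 7.3 in null lenses and 83.6 ± 1.0 in heterozygous lenses (SD, n = 3 each). Its normalised log2 signal was 4.88, 5.43 and 5.45 on null arrays and 4.75, 4.77 and 5.13 on heterozygous arrays. Null array a fell inside the heterozygous range, so the groups overlapped, and the probe was detected on 3 null arrays and 1 heterozygous array. The difference of 0.37 (SE 0.199, 95% interval -0.08 to 0.81) did not pass limma's test (adjusted p = 0.964), and was 0.129 without background correction. Gclm, the regulatory subunit, had 289.2 ± 11.7 in null lenses and 294.0 ± 13.5 in heterozygous lenses, and its difference of -0.05 had an SE of 0.146.

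Gss, which adds glycine to complete glutathione, had 4 tested probes, all higher in null lenses on average. Its brightest probe had a raw intensity of 1188.3, 1609.3 and 1130.8 on null arrays and 1205.2, 1186.0 and 1417.5 on heterozygous arrays, and a normalised log2 difference of 0.01. A second Gss probe had normalised log2 signals of 9.14, 10.53 and 9.07 on null arrays, against 9.21, 9.08 and 9.34 on heterozygous arrays. Array b alone was high there: the difference was 0.37 with it and -0.11 without it. The brightest probe's difference was -0.16 without that array. Slc7a11, the light chain of the cystine importer that supplies cysteine, had 2 tested and 3 undetected probes, and its tested probes went opposite ways (0.16 and -0.10). Glutathione reductase, Gsr, which returns the oxidised form to glutathione, had no annotated probe.

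Among the peroxide-removing glutathione enzymes, Gpx1 was bright. This selenoenzyme reduces hydrogen peroxide in the cytosol, and its raw intensity was 10648 ± 475 in null lenses and 12277 ± 984 in heterozygous lenses. The normalised log2 signal was 13.36, 13.53 and 13.37 on null arrays and 13.43, 13.53 and 13.67 on heterozygous arrays. The raw values did not overlap, but the normalised values did, and the difference of -0.12 had a 95% interval of -0.45 to 0.21. The highest raw reading of any member on any array was 14958, well under the array maxima of 49500 to 52874, so no member reached the top of the scale.

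Gpx4, which reduces lipid hydroperoxides in membranes, gave 2188.9 ± 438.2 in null lenses and 2047.7 ± 83.8 in heterozygous lenses. Its log2 signal was 10.92, 11.37 and 10.82 on null arrays and 11.03, 10.84 and 11.02 on heterozygous arrays, a difference of 0.07 (SE 0.179). Again array b was the highest, and without it the difference was -0.095. Gpx3, the secreted plasma form, stayed below the filter, detected on 1 null array and 0 heterozygous arrays at 75.0 ± 7.2 and 75.9 ± 6.4.

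Gstp1, the pi-class glutathione transferase, leaned higher in null lenses with all 3 of its probes, none past the adjusted threshold. Its brightest probe averaged 12930 ± 1758 in null lenses and 11028 ± 1218 in heterozygous lenses. The log2 values were 13.56, 13.99 and 13.49 on null arrays and 13.29, 13.21 and 13.55 on heterozygous arrays. One heterozygous array lay within the null range, and the difference was 0.33 (SE 0.182, 95% interval -0.08 to 0.74). Array b was the highest, and the difference was 0.174 without it and 0.156 on the authors' normalised values.

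A dimmer Gstp1 probe read 7.26, 7.96 and 7.96 on null arrays and 6.97, 7.29 and 7.07 on heterozygous arrays. Null array a fell just under heterozygous array b, so these too overlapped, with a difference of 0.62 (SE 0.212, unadjusted p = 0.0161, limma adjusted p = 0.964). The remaining Gstp1 probe gave 0.27 (SE 0.167). Without array b these probes gave 0.499 and 0.145. The near-identical neighbour Gstp2 had a difference of 0.31 on its own probe (0.114 without array b), and cross-hybridisation between the 2 transcripts was not tested, so the Gstp1 values are uncertain as to gene.

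The other transferases showed smaller or less steady differences. Gsta4, which conjugates the lipid peroxidation product 4-hydroxynonenal, read 6.61, 7.03 and 6.06 on null arrays and 6.43, 6.46 and 5.69 on heterozygous arrays. Its difference of 0.37 had an SE of 0.279 and was 0.14 without null array b. The mu-class genes Gstm1 and Gstm5 were bright and level, with 2727.4 ± 321.3 in null lenses and 2764.4 ± 504.5 in heterozygous lenses for Gstm5 and differences of -0.03 and 0.0025. The omega-class Gsto1 differed by -0.10. The microsomal Mgst1 and Mgst3 differed by -0.05 and 0.03 on their brightest probes, while second probes gave -0.42 (SE 0.216, unadjusted p = 0.0798) and 0.29. Glutaredoxin, Glrx, which removes glutathione from protein thiols, differed by 0.14 (SE 0.146). Across the 14 tested glutathione genes, 9 were higher and 5 lower in null lenses, 0 passed the test, and the median log2 difference was 0.02, with a range of -0.12 to 0.37.

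**Figure D2:**
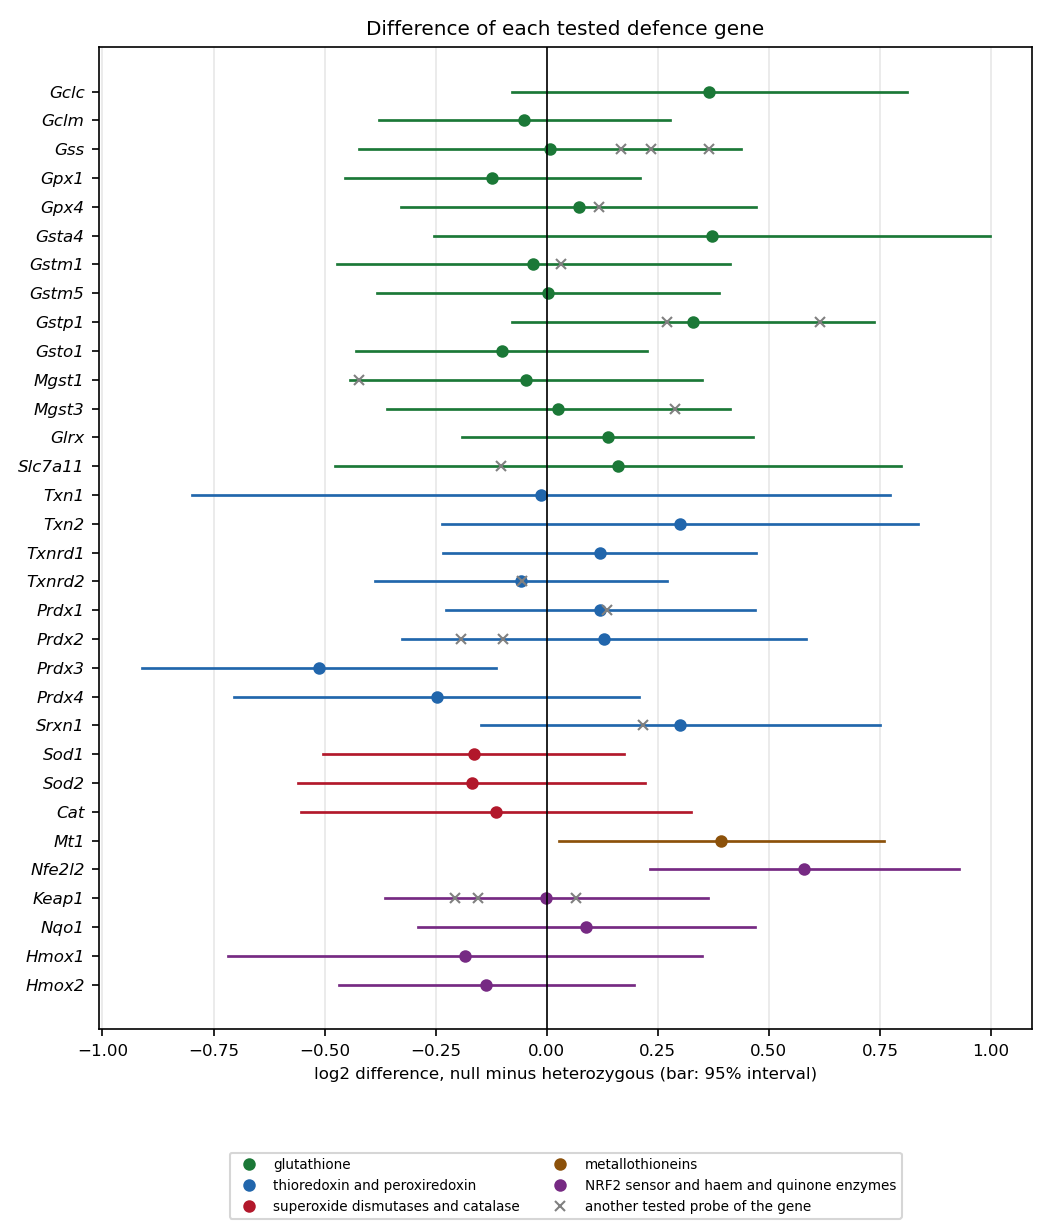
Log2 difference (null minus heterozygous) of each tested member with its 95% interval from limma, grouped by role by colour; crosses mark a gene's other tested probes and the vertical line marks 0. The intervals of Nfe2l2, Mt1 and Prdx3 leave out 0, and every other interval crosses it, before any adjustment for the number of genes tested.

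In the thioredoxin group the differences ran from -0.51 to 0.30, with 5 of 9 tested genes higher and 4 lower in null lenses, 0 passing the test, and a median of 0.12. Txn1, cytosolic thioredoxin, had the largest standard error of the 32 tested members. It read 6.77, 5.88 and 7.58 on null arrays and 6.85, 6.90 and 6.53 on heterozygous arrays. The null arrays spanned the whole heterozygous range on both sides. The difference of -0.01 had an SE of 0.351, was 0.42 without null array b and was -0.43 without null array c, so no direction can be given. Txn2, the mitochondrial thioredoxin, read 6.59, 7.41 and 6.70 on null arrays and 6.27, 6.76 and 6.77 on heterozygous arrays. Its difference of 0.30 (SE 0.239) was 0.045 without array b.

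The probes of the reductases that recharge thioredoxin were near level. Txnrd1, the cytosolic form, was dim at 82.4 ± 5.5 in null lenses and 82.1 ± 7.1 in heterozygous lenses, with a difference of 0.12 (SE 0.157). It was detected on 3 null and 2 heterozygous arrays, and so dim a probe cannot show that the transcript was level. Txnrd2, the mitochondrial form, differed by -0.06 on both of its probes. Srxn1, sulfiredoxin, which revives over-oxidised peroxiredoxins, read 5.93, 6.08 and 5.79 on null arrays and 5.53, 5.33 and 6.04 on heterozygous arrays. One heterozygous array reached the null level, and the difference of 0.30 had a 95% interval of -0.15 to 0.75. It was 0.147 without heterozygous array b, 0.504 without heterozygous array c and 0.127 without background correction. Msra, a methionine sulfoxide reductase, had 2 probes, detected on no array.

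Prdx3, the mitochondrial peroxiredoxin, was lower on all 3 null arrays. Its raw intensity was 191.6 ± 24.7 in null lenses and 248.5 ± 11.0 in heterozygous lenses. The log2 values were 7.37, 6.77 and 7.13 on null arrays and 7.57, 7.62 and 7.62 on heterozygous arrays. The heterozygous arrays lay close together and the null arrays were spread, array b being the lowest. The difference was -0.51 (SE 0.178, 95% interval -0.91 to -0.11, unadjusted p = 0.017), which did not pass limma's test (adjusted p = 0.964). Without array b it was -0.35.

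The other peroxiredoxins did not share a direction. Prdx1, a cytosolic form, was bright at 5767.1 ± 570.9 in null lenses and 5460.7 ± 770.9 in heterozygous lenses, and its 2 probes gave 0.12 and 0.14. Prdx2, also cytosolic, read 12.64, 13.27 and 12.56 on null arrays and 12.68, 12.60 and 12.81 on heterozygous arrays with its brightest probe. That difference of 0.13 stood beside -0.19 and -0.10 from its other probes. Prdx4, the form of the endoplasmic reticulum, read 10.58, 9.87 and 10.51 on null arrays and 10.50, 10.70 and 10.50 on heterozygous arrays. Only array b was low, and the difference was -0.25 with it and -0.024 without it. Prdx5 and Prdx6 had no annotated probe.

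All 3 tested dismutase and catalase genes were lower in null lenses on average, and 0 of 3 passed the test. Sod1, the copper-zinc enzyme of the cytosol, had 1734.0 ± 178.1 in null lenses and 1911.4 ± 77.4 in heterozygous lenses. Its log2 signal was 10.79, 10.52 and 10.78 on null arrays and 10.79, 10.84 and 10.95 on heterozygous arrays. The groups met at 10.79 to 2 decimals and were counted as not overlapping only by the next digits, while the raw intensities overlapped. The difference was -0.16 (SE 0.151, unadjusted p = 0.302), and -0.078 without array b. Sod2, the manganese enzyme of mitochondria, read 11.22, 10.79 and 11.34 on null arrays and 11.31, 11.31 and 11.24 on heterozygous arrays. Its difference of -0.17 (SE 0.174) was -0.0067 without array b. Cat, catalase, differed by -0.11 (SE 0.196) and by 0.019 without array b. The single probe for Sod3, the extracellular enzyme, was detected on no array.

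Of the 2 metallothioneins only Mt1 was measurable. Its raw intensity was 131.3, 142.9 and 113.1 on null arrays and 114.0, 116.4 and 104.5 on heterozygous arrays. The normalised log2 values were 6.31, 6.43 and 5.97 on null arrays and 5.82, 5.88 and 5.84 on heterozygous arrays. All null arrays lay above all heterozygous arrays after normalisation, array c by the least, while the raw value of null array c lay within the heterozygous range. The difference of 0.39 (SE 0.164, 95% interval 0.03 to 0.76, unadjusted p = 0.0381) did not pass limma's test (adjusted p = 0.964), and was 0.195 without background correction and 0.209 on the authors' normalised values. The single Mt2 probe was detected on no array, at 73.7 ± 1.6 in null lenses and 74.2 ± 3.7 in heterozygous lenses, the level of an array's median probe.

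Nfe2l2, the gene of NRF2, had the lowest unadjusted p of any member. Its raw intensity was 95.8 ± 4.3 in null lenses and 83.2 ± 7.6 in heterozygous lenses. The log2 values were 5.31, 5.53 and 5.45 on null arrays and 4.95, 4.94 and 4.66 on heterozygous arrays. The groups did not overlap. The difference of 0.58 (SE 0.155, 95% interval 0.23 to 0.93, unadjusted p = 0.00414) corresponded to 1.49-fold and did not pass limma's test over the whole array (adjusted p = 0.964). It was 0.204 without background correction and 0.236 on the authors' normalised values. The probe was dim, being detected on 3 null and 2 heterozygous arrays, and a second Nfe2l2 probe was detected on no array. On the same arrays 3 of 9 tested vessel markers were higher with no overlap, beside 5.23% of all genes, and 2 of the 9 were lower. Those 3, like Nfe2l2, could pass the filter through the null arrays alone, where they were high, so that share is not a fair comparison. A link between these markers and Nfe2l2 was not tested.

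With all arrays, the sensor and the haem and quinone enzymes had smaller differences than Nfe2l2. Keap1, the adaptor that marks NRF2 for degradation, had 221.1 ± 28.3 in null lenses and 220.8 ± 17.6 in heterozygous lenses, with a difference of -0.0015, and its other tested probes gave -0.15, 0.07 and -0.21. Nqo1, a quinone reductase and classical NRF2 target, differed by 0.09 (SE 0.170). Hmox1, the inducible haem oxygenase, was bright and variable, with 11.65, 12.32 and 11.38 on null arrays and 11.92, 11.79 and 12.19 on heterozygous arrays. Null array b was the highest of the 6 and the other null arrays the lowest, so the difference was -0.18 (SE 0.238) with all arrays, -0.45 without array b and 0.017 without null array c. Hmox2, the constitutive form, differed by -0.14 (SE 0.148), and by -0.216 without array b. Of these 5 genes, 2 were higher and 3 lower in null lenses, with a median of -0.0015.

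**Figure D3:**
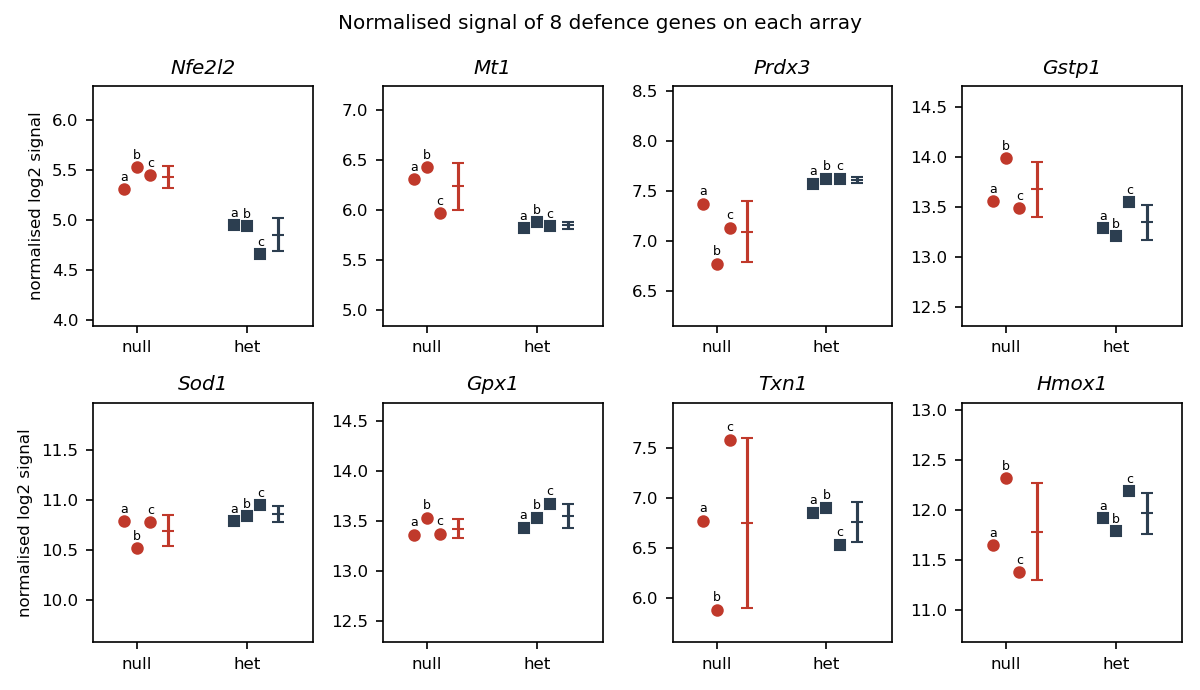
Normalised log2 signal of 8 members on each array, null arrays left and heterozygous arrays right, with the group mean and SD as bars; the members were picked after their values were seen. Nfe2l2 and Mt1 sit higher and Prdx3 lower on all 3 null arrays, while, of these 8, Txn1 and Hmox1 spread most widely across the null arrays.

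Probes of the same gene were compared, though they were read on the same arrays and share the deviation of any 1 array. Of the 12 members with several tested probes, 8 had all probes on the same side of 0 and 4 did not (Gstm1, Slc7a11, Prdx2 and Keap1). Among those 8, agreement could rest on null array b. Without it both Gpx4 probes turned lower (-0.26 and -0.095), and the Gss probes gave -0.11, 0.086, -0.16 and -0.0012. Array b also carried much of the spread among members, as it did over the whole array. On it 8 of 32 members (25%) lay more than 0.5 log2 from the mean of the other 5 arrays, 5 above and 3 below, against 3.12% to 9.38% of members on each other array.

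**Figure D4:**
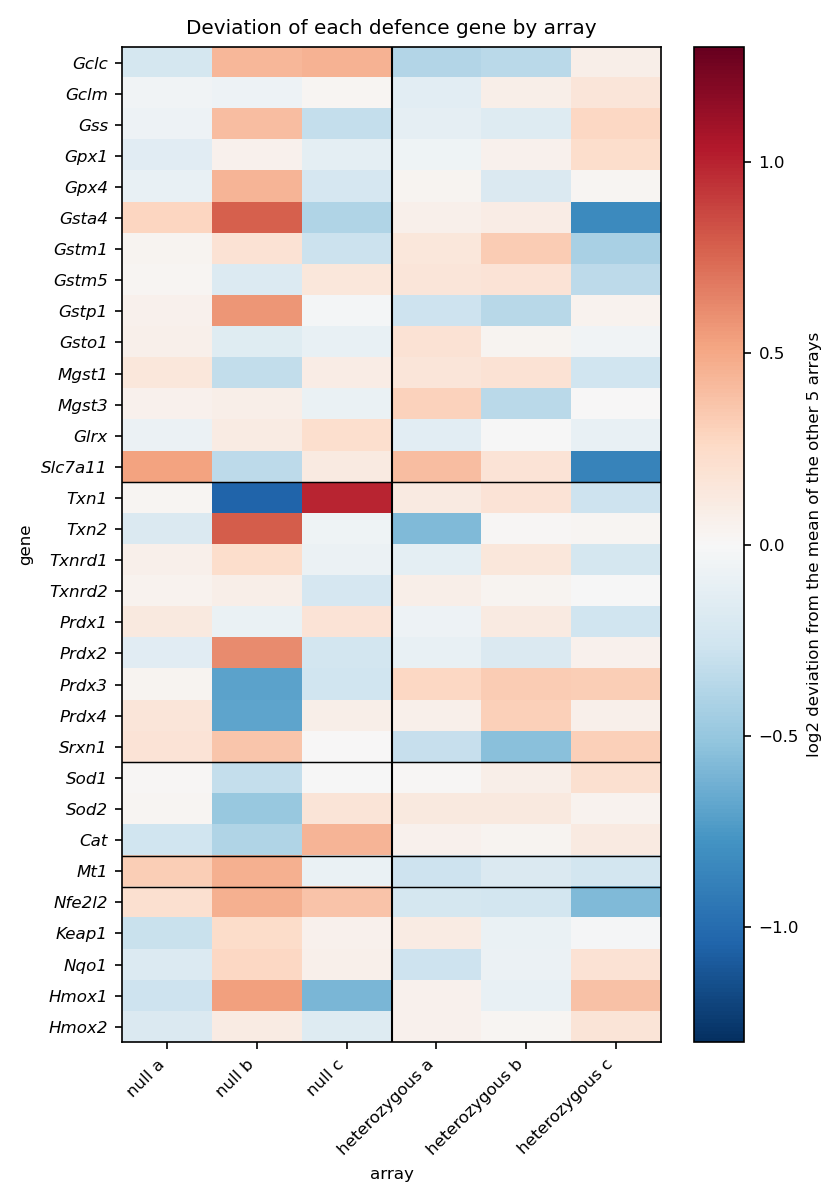
Heat map of each tested member's deviation (log2) from the mean of the other 5 arrays, with members in rows by role and null arrays left of heterozygous arrays, red above and blue below that mean. Null array b has the most members beyond 0.5 log2 (8 of 32, 5 above and 3 below).

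Genes around these systems were read from further lists in the same fit, and 0 of them passed the test. Among 23 tested further glutathione genes, 12 were higher and 11 lower in null lenses. Hagh, a glyoxalase that releases glutathione, read 7.59, 9.20 and 7.43 on null arrays and 7.34, 7.30 and 7.52 on heterozygous arrays. Only array b was high, and the difference was 0.69 (SE 0.391) with it and 0.125 without it. Chac1, which breaks glutathione down, differed by -0.38. Of 12 NADPH-supplying genes 2 were higher and 10 lower, where 47.8% of all tested genes were higher. Array b weighed on this count. The list's median deviation from the other arrays was -0.277 on null array b, but 0.075 and 0.115 on null arrays a and c. Tkt of the pentose phosphate pathway differed by -0.33, Idh1 by -0.22 (-0.036 without array b) and the folate enzyme Mthfd1 by -0.14. Of 11 further thioredoxin-fold and methionine sulfoxide reductase genes 2 were higher and 9 lower. Msrb2 was at -0.39 (-0.082 when its probes were averaged), the stress-responsive Sesn1 at -0.35 and Txndc12 at -0.19 (-0.043 without array b). These directions are descriptions, since 0 genes of the 3 lists had an unadjusted p under 0.05.

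The regulators around NRF2 were mixed, with 9 of 15 tested genes higher and 6 lower. Mafg, a small MAF partner of NRF2, read 9.35, 8.64 and 8.87 on null arrays and 9.64, 9.26 and 9.35 on heterozygous arrays. Its difference was -0.46 (SE 0.205, unadjusted p = 0.0479, limma adjusted p = 0.964), and -0.224 when its probes were averaged. Bach1, a repressor that competes at the same element, differed by -0.37, and the aldo-keto reductase Akr1b8 by 0.42 (unadjusted p = 0.048).

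Of 11 tested metal-handling genes 8 were higher and 3 lower in null lenses, with a median difference of 0.041 (47.8% of all tested genes were higher). Slc31a1, the copper importer, read 9.62, 9.77 and 9.78 on null arrays and 9.25, 9.38 and 9.46 on heterozygous arrays. Its groups did not overlap, with a difference of 0.36 (SE 0.147, unadjusted p = 0.0362, limma adjusted p = 0.964). Slc30a5, a zinc exporter into the secretory pathway, read 7.62, 7.80 and 7.60 on null arrays and 7.36, 7.30 and 7.37 on heterozygous arrays. It too did not overlap, with a difference of 0.33 (unadjusted p = 0.0477, limma adjusted p = 0.964), and Cp, ceruloplasmin, differed by 0.12. Of 14 tested genes for selenoproteins and the factors that make them 8 were higher and 6 lower. Trnau1ap was at 0.25, Selenos at 0.26 and Selenot at 0.27 (0.087 when its probes were averaged).

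Markers of other cells were read beside these results. Of 12 red blood cell genes 4 were tested, and all 4 were higher in null lenses without passing the test. Their summed signal was 462 to 1073 on null arrays and 311 to 707 on heterozygous arrays, and Hbb-y, Alas2 and Epb42 were detected on no array. The 3 globin genes differed by 0.70 to 0.86. Of 12 vessel genes 9 were tested, 7 higher and 2 lower, with a median difference of 0.40 and sums of 832.5 to 1075 on null arrays and 740 to 907 on heterozygous arrays. In 3 of the 9, named after their values were seen, the groups did not overlap, beside 5.23% of all genes with null arrays all higher. Their unadjusted p was under 0.05, though 0 passed limma's test. These were the pericyte marker Rgs5, at 1.08 (unadjusted p = 0.000148, adjusted p = 0.362), and the endothelial Emcn, at 0.48, and Flt1, at 0.51 (adjusted p = 0.964 each). Emcn was detected on 3 null and 0 heterozygous arrays, and Rgs5 and Flt1 on 3 and 1 each. The null arrays, where they were high, could alone carry them past the filter. Cldn5, Esam and Egfl7 were higher with overlap (0.70, 0.40 and 0.16). Kdr differed by 0.018, Pecam1 by -0.098 and Tek by -0.24. Tie1 was detected on no array, Cdh5 on 2 at most and Pdgfrb on 1 at most. Macrophage genes were tested for 3 of 12, with sums of 92.2 to 96.5 on null arrays and 88.0 to 102 on heterozygous arrays, and Adgre1, Lyz2, Tyrobp and the C1q genes C1qa, C1qb and C1qc were detected on no array. Pigment and ciliary genes were tested for 4 of 12, with sums of 118 to 161 on null arrays and 118 to 175 on heterozygous arrays and Tyr, Dct, Mlana, Rpe65 and Otx2 on no array. Mesenchymal genes were tested for 4 of 12 and summed to 663 to 1443 on null arrays and 599 to 1356 on heterozygous arrays. Lens epithelial markers summed to 18482 to 23184 on null arrays and 21233 to 23311 on heterozygous arrays. Lens fibre markers, 7 higher and 6 lower, summed to 298861 to 312720 on null arrays and 315560 to 328054 on heterozygous arrays. Those ranges did not overlap, unlike the sums of the other marker lists. Sums of 2 further pathway lists did not overlap either. The selenoprotein list summed to 5822 to 6454 on null arrays and 5374 to 5760 on heterozygous arrays. The further thioredoxin-fold list summed to 3743 to 4119 on null arrays and 4150 to 4367 on heterozygous arrays. The part of the marked cells in the members' values was not tested.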

How the data were processed

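Biotin-labelled RNA was hybridised to Illumina bead arrays, per the labels' protocols. The authors deposited raw signal intensity and a detection p-value for each of 45281 probes per the file headers, and a second table of their own normalised intensity. That table proved to be linear, not centred, and a straight line of the raw values array by array (slope 0.849 to 1.08, median 72.50 to 74.15). It carries the replicate numbers, whereas the raw columns name only the genotype. No label or header names the software behind either table.

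The neqc function of limma 3.58.1, run under R 4.3.3, took the raw intensities through normexp background correction (negative controls inferred from detection p-values, offset 16), quantile scaling and log2. A probe was kept where at least 3 arrays detected it (p under 0.05), and lmFit and eBayes gave two-sided tests, adjusted by Benjamini-Hochberg over 14636 probes. Scripts were tested on simulated data. Symbols came from the platform annotation, in which 34885 probes had 1 symbol, 18 several and 10378 none. The precision is limited by 3 arrays per genotype.

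The members and all lists were chosen with earlier results of these data known. Every member is accounted for, and from each further list the 3 genes with the lowest p were named. Alternatives changed the background correction, scaling, filter, probe rule, array weights, source table and replicate block, and left out each array in turn.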

Additional observations from a re-analysis of the deposited data

How the results depend on the processing

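No member passed limma's test under the 13 alternatives that give a test (lowest adjusted p 0.239); averaging a gene's probes gives values only. Over all 14, 17 of 32 members kept their direction and 15 changed it at least once; the cause was not tested. Without background correction Txn1 was 0.029 and Keap1 0.001, and the median was 0.041 for the thioredoxin group and 0.195 for Mt1. Median scaling gave Gclm 0.026, Gstm1 0.003, Mgst1 and Txnrd2 0.006 each, Txn1 0.064 and Keap1 0.052, and a glutathione median of 0.081. The authors' normalised values gave Gss -0.034, Gstm5 -0.076, Txn1 0.032 and Prdx2 -0.018, with medians of 0.013 for the thioredoxin group and 0.209 for Mt1. The replicate block on those values gave 1 probe called in the whole table. Its differences were the same numbers, as a block in a balanced design leaves them unchanged. Same-numbered deviations correlated at 0.158, -0.154 and -0.147, so pairing by number was not seen, though so few arrays cannot exclude it. Array weights gave Gss -0.038, Gpx4 -0.028, Gstm5 -0.006, Mgst1 0.04, Txn1 0.082, Prdx2 -0.023, Nqo1 -0.026, a NRF2 group median of -0.166 and 13 probes called. No filter gave 1 probe called, against 2 as reported. Averaging a gene's probes gave Gstm1 0.001, Prdx2 -0.054, Tkt 0.043 and a thioredoxin median of -0.014. With each array left out in turn, probes called ranged from 1 to 3, the thioredoxin median from 0.041 to 0.098 and the glutathione median from 0 to 0.086. Differences then ranged from -0.156 to 0.14 for Gss, -0.095 to 0.18 for Gpx4, -0.214 to 0.098 for Gstm1, -0.138 to 0.078 for Gstm5, -0.121 to 0.002 for Gclm, -0.167 to 0.078 for Mgst1, -0.115 to 0.158 for Mgst3 and -0.162 to 0.369 for Slc7a11. They ranged from -0.43 to 0.416 for Txn1, -0.102 to 0.021 for Txnrd2, -0.095 to 0.26 for Prdx2, -0.329 to 0.019 for Cat, -0.099 to 0.118 for Keap1, -0.002 to 0.19 for Nqo1 and -0.452 to 0.017 for Hmox1. Over all alternatives Nfe2l2 ranged from 0.204 to 0.638, Mt1 from 0.195 to 0.526 and Prdx3 from -0.655 to -0.301, each in 1 direction; Nfe2l2 was not tested where detection on all 6 arrays was required.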
